A study of Mus musculus with 4 samples.

Results

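The liver X receptor (LXR) target genes examined here are 10 genes of sterol export, lipoprotein handling and fatty acid synthesis, found by symbol among the 23420 genes of the count tables. They are Abca1, Abcg1, Srebf1, Mylip, Lpcat3, Scd1, Scd2, Fasn, Apoe and Pltp, and all 10 were present and had enough counts for testing. RNA was sequenced from E14 mouse embryonic stem cells, a wild-type line grown without feeder cells on gelatin with leukemia inhibitory factor, per the labels. All-trans retinoic acid (ATRA) was given at 1 µM for 24 h in the 2 libraries of the ATRA group, and the control group was 2 libraries of cells at 0 h. The growth protocol also covers embryoid bodies, and no label says whether these libraries were among them. The dose follows the titles and the treatment protocol, since a treatment label reads mM instead. Whether the 0 h cells were given vehicle is not labelled, and the effects of ATRA and of 24 h of culture cannot be told apart. The treatment protocol also lists the LXR agonist GW3965 and the retinoid X receptor (RXR) agonist LG268, but none of the 4 libraries is labelled with either. Separate cultures are not labelled for the replicates, so p-values reflect the spread between libraries, which may be technical.

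LXRs are nuclear receptors for oxysterols. They bind DNA as heterodimers with RXR, at direct repeats of a hexamer spaced by 4 bases, and induce genes that move cholesterol out of cells and genes that make and desaturate fatty acids. RXR is also the partner of the retinoic acid receptors, which ATRA activates. LXR target genes are best known from liver and macrophages.

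Sequence near the start sites is shown first, because several of these genes share a long run of letters there. RefSeq promoter windows (GRCm38.p6, 250 bases before to 50 after a start site) were held for 7 of the 10 genes, Abca1, Srebf1, Mylip, Lpcat3, Fasn, Apoe and Pltp. The longest run common to the windows of any 2 of these genes was 18 bases long, in Abca1 and Fasn, and an exact copy lay in 2 of 32851 windows (0.00609%). With up to 3 mismatches the run was found in 6 windows (0.0183%), among them a Srebf1 window that holds it in both of the places shown. The run was chosen after the promoters were read. In capitals are the run and its inexact copies.
Abca1: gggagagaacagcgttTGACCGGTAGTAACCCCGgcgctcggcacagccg
Fasn: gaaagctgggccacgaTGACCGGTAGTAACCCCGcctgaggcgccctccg
Srebf1, upstream copy: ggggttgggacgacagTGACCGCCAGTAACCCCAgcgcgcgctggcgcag
Srebf1, downstream copy: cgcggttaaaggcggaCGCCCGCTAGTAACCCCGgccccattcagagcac
Acsl3: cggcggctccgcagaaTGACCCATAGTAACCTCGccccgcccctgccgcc
Rnf145: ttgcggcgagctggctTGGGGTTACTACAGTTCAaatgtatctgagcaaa
The stretches read 5′ to 3′ on the strand of each gene. They lie at chr4:53159929-53159978 (minus strand, Abca1), chr11:120824739-120824788 (minus, Fasn), chr11:60210620-60210669 and chr11:60210569-60210618 (minus, Srebf1), chr1:78657697-78657746 (plus, Acsl3) and chr11:44520179-44520228 (plus, Rnf145). The run begins 67 bases before the start site in Abca1, 225 in Fasn, and 182 and 131 in Srebf1. In Rnf145 the match is on the opposite strand. Acsl3, which encodes an acyl-CoA synthetase, and Rnf145, a ubiquitin ligase gene, are also known LXR targets and were named after the search. The remaining window belonged to Gm34061.

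Read on the opposite strand, the run in Abca1, Fasn and the upstream Srebf1 copy matches the LXR repeat, AGGTCA repeated directly with a spacer of 4 bases, with 3 mismatches in its 12 fixed letters, a match that 21.9% of all windows hold. With at most 2 mismatches, on both strands, the same repeat occurred in 3.02% of all windows, the same repeat with a spacer of 5 in 2.79%, and with a spacer of 1 in 3.86%. None of these, nor a single AGGTCA (16.3% of windows), was found in the windows of the 7 genes. CCAAT occurred in windows of Srebf1, Mylip, Lpcat3, Fasn and Pltp (37.4% of all windows), and GGGCGG in those of Abca1, Srebf1, Mylip, Lpcat3 and Pltp (35.7%). A match describes letters in this window and does not show binding.

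The ATRA libraries held 13337972 and 11086233 counts in genes and the controls 31005634 and 21484812. Levels below are CPM, that is counts scaled to a common library size after TMM, and each fold change is the log2 ratio of ATRA to control. Over 14146 genes, which are no independent replicates, the fold change fell with transcript GC content (Spearman rho −0.75). GC content also separated the ATRA libraries: between replicate 2 and replicate 1 the median log2 ratio was 0.86 in the decile of genes lowest in GC content and −1.37 in the highest. A correction for GC content per library was therefore computed, and the fold changes of the LXR target genes are given without and with it. Levels are uncorrected unless called corrected. It removes any GC-related difference, whether technical or caused by the treatment. The retinoic acid target Rarb averaged 38.7 CPM with ATRA and 0.174 CPM in the controls, at a log2 ratio of 7.79 (edgeR adjusted p = 0.0229), and 7.53 after correction (0.00115). Cyp26a1, whose protein breaks down retinoic acid, was at 4.94 (edgeR adjusted p = 0.0266), and 5.83 after correction (0.00832). The stem cell factor gene Pou5f1 was at 307 and 106 CPM in the ATRA libraries and at 1279 and 1251 CPM in the controls, a log2 ratio of −2.61 (edgeR adjusted p = 0.0763) and −1.27 after correction (0.0104). Sox2, another such gene, was at 136 and 273 CPM with ATRA and at 229 and 217 CPM in the controls. Its log2 ratio was −0.13 (edgeR adjusted p = 0.809) and −0.03 after correction (0.966). All 10 listed stem cell markers had counts in both groups, and after correction 7 of them fell and 0 rose, with a median of −1.23, beside the falls of LXR target genes described next. Their part in those falls was not tested. For this and the marker counts below, 7.84% of all tested genes fell and 8.79% rose after correction. Of 7 tested fibroblast markers 2 rose and 0 fell after correction (median 0.81), while their summed level without it was 116 and 111 CPM with ATRA and 226 and 165 CPM in the controls. Col1a1 alone had 40.1 and 24.1 CPM with ATRA and 141 and 91.9 CPM in the controls. After correction it did not pass (−0.15, edgeR adjusted p = 0.656). The 2 that rose were Pdgfra and Pdgfrb, at 1.53 and 1.04 (edgeR adjusted p = 0.0411 and 0.0272). Of 5 tested neural progenitor markers 2 rose and 1 fell (median 1.36), with sums of 299 and 398 CPM with ATRA and 383 and 323 CPM in the controls, mostly Nes. Adipocyte markers summed to at most 0.636 CPM in any library.

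After 24 h of ATRA and with the GC correction, the sterol exporter genes Abca1 and Abcg1, the apolipoprotein gene Apoe, the phospholipid transfer protein gene Pltp and the fatty acid synthase gene Fasn fell, and the desaturase gene Scd1 rose. Srebf1, Mylip, Lpcat3 and Scd2 did not pass. In these bulk samples, fewer cells of a type and less RNA per cell cannot be told apart. These 6 of 10 calls compare with 16.6% of the 14256 genes tested. In single directions, 5 of 10 fell, against 7.84% of all genes, and 1 of 10 rose, against 8.79% (edgeR's quasi-likelihood test, Benjamini-Hochberg adjusted p under 0.05 over all genes). The median GC-corrected log2 fold change was −0.48 over the 10 genes and 0.01 over all genes tested. Without the correction 0 of 10 passed edgeR's test, where 0.603% of all genes did (0.435% higher, 62 genes, and 0.168% lower, 24 genes). Of the 10 genes, 7 had an unadjusted p under 0.05 there, as did 5721 of the 14256 genes tested. DESeq2 called 6 of 10 without the correction, 1 higher and 5 lower, and 4350 of all 14256 genes (1777 higher and 2573 lower). The uncorrected median was −1.38 over the 10 genes and −0.02 over all. With either control library left out, 0 of 10 passed in the GC-corrected fit, where 51 and 65 genes of the whole table did. The 6 genes kept their direction then, with edgeR adjusted p between 0.119 and 0.354. With either ATRA library left out, the 6 genes also kept their direction in the GC-corrected fit. Such fits take their spread from the 2 controls alone, so their calls are not compared here. Fits without a control library take theirs from the 2 ATRA libraries alone. These differed more from each other (Spearman rho 0.97, against 0.99 between the controls). A call lost without a control library therefore cannot be laid to the omitted library alone.

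**Figure D1:**
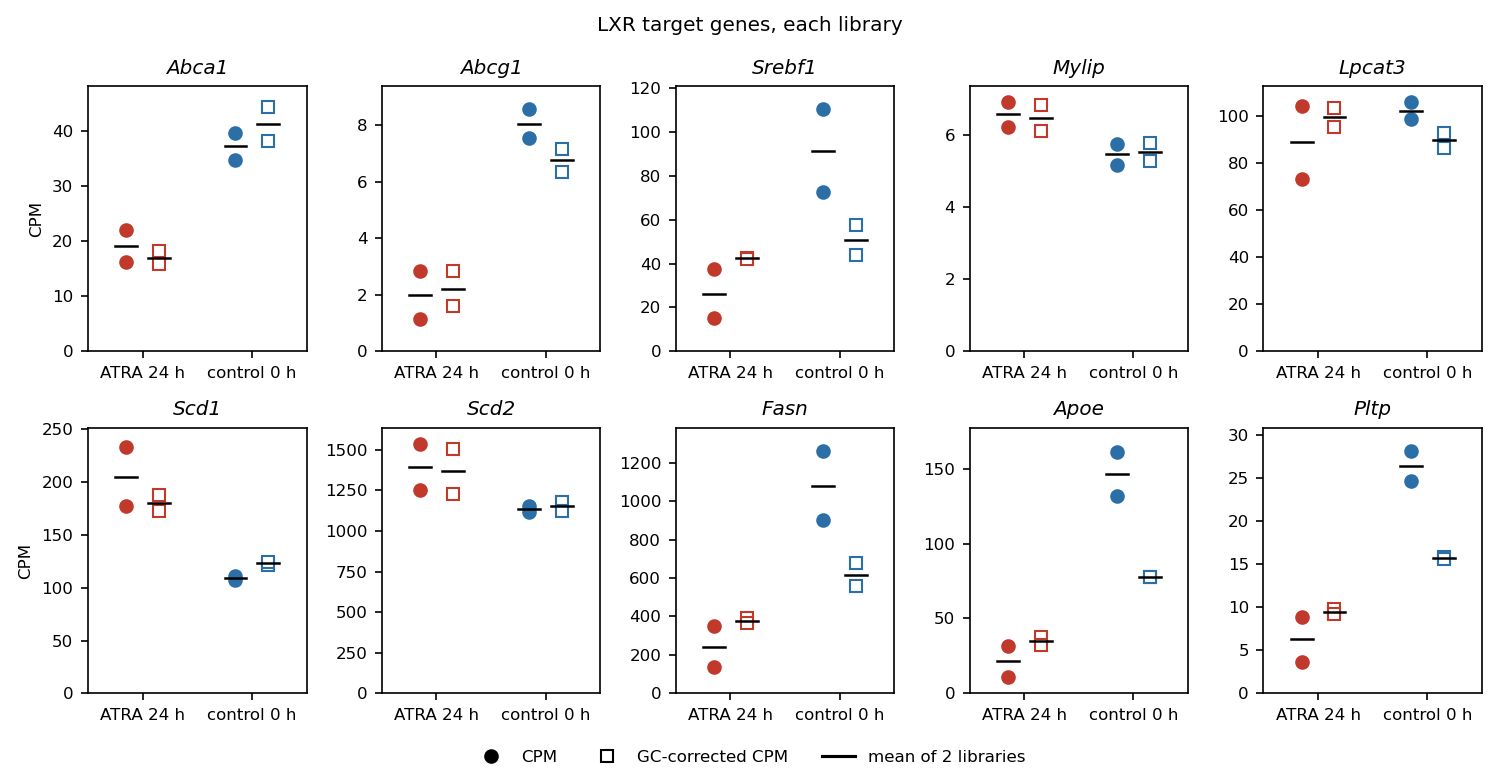
CPM of each LXR target gene in the ATRA libraries (red, left) and the control libraries (blue, right), without GC correction (filled circles) and with it (open squares). Each point is a library and each line the mean of 2 libraries. The ATRA libraries lie below the controls for Abca1, Abcg1, Srebf1, Fasn, Apoe and Pltp on both scales.

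The sterol exporters come first. Abca1 encodes the ABC transporter that loads cholesterol and phospholipid onto lipid-poor apolipoprotein A-I, and spans bases 53030787 to 53159895 of chromosome 4 on the minus strand (GRCm38, GENCODE M21, as for all gene positions here). It had 16.3 and 22.0 CPM in the ATRA libraries, against 39.7 and 34.8 CPM in the controls. The groups did not overlap, which held for 81.4% of all genes tested (40% with ATRA higher and 41.5% with ATRA lower), and after correction for 70.3% (35.5% and 34.8%). Its log2 fold change was −0.97 ± 0.32 (SE, edgeR adjusted p = 0.0951), and −1.28 ± 0.16 after GC correction (edgeR adjusted p = 0.0145). After correction it averaged 17.0 ± 1.7 CPM with ATRA and 41.3 ± 4.42 CPM in the controls (SD, n = 2 each). The GC content of its transcript is 47.5%, in GC decile 4, whose median log2 fold change without correction was 0.36. Abca1 thus lay below zero where genes of its GC content lay above it, and the correction moved it further down.

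Abcg1 encodes an ABC transporter that passes cholesterol to mature high-density lipoprotein (chromosome 17, 31057675 to 31117988, plus strand). It had the fewest counts of the 10 genes in the ATRA libraries, with 40 and 11 counts in the ATRA libraries and 273 and 169 in the controls. These are 2.83 and 1.13 CPM with ATRA, against 8.56 and 7.53 CPM in the controls, with no overlap. The log2 fold change was −1.98 ± 0.50 (edgeR adjusted p = 0.0808) and −1.54 ± 0.32 after GC correction (edgeR adjusted p = 0.0358). Its ATRA libraries differed by −1.32 on the log2 scale (replicate 2 over replicate 1) and still by −0.83 after correction, the widest corrected gap between ATRA replicates among the 10 genes. Of all tested genes, 96.9% had a higher corrected fold change than Abcg1, and 95.2% a higher one than Abca1.

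Apoe, the gene of the lipoprotein particle ligand apolipoprotein E, lies on chromosome 7 from 19696109 to 19699188, minus strand. It had 31.7 and 10.9 CPM in the ATRA libraries, against 161 and 132 CPM in the controls. Both ATRA libraries were low, replicate 2 more so, and the groups were far apart. At −2.77 ± 0.54 its log2 ratio (edgeR adjusted p = 0.0733) was the most negative of the 10 genes, but its GC content, 59.5%, is in the highest decile, whose median was −1.73. After correction Apoe was at −1.14 ± 0.12 (edgeR adjusted p = 0.0102), the smallest adjusted p of the 10, with 34.8 ± 3.54 CPM under ATRA and 77.6 ± 0.216 CPM in the controls (SD, n = 2 each). With any single library left out, the log2 fold change of Apoe stayed between −3.76 and −2.20 uncorrected and between −1.25 and −1.05 corrected. Visceral endoderm is a known site of Apoe expression. The 8 listed extraembryonic endoderm markers summed to 53.5 and 80.1 CPM in the ATRA libraries and to 26.4 and 26.6 CPM in the controls. Most of these sums was Dab2, with 42.3 and 66.4 CPM under ATRA and 21.7 and 22.3 CPM in the controls. Of those 8, 5 were tested and 4 rose after correction, where 8.79% of all tested genes rose. None of the 8 was at 0 in either group, and their part in the Apoe result was not tested. The 7 hepatocyte markers summed to at most 0.212 CPM in any library, with 5 at 0 in each group.

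Pltp encodes phospholipid transfer protein, which moves phospholipids between lipoproteins (chromosome 2, 164839518 to 164857711, minus strand). It had 8.91 and 3.61 CPM in the ATRA libraries, against 28.1 and 24.6 CPM in the controls, with no overlap. The log2 fold change was −2.06 ± 0.49 (edgeR adjusted p = 0.0785) and −0.72 ± 0.17 after correction (edgeR adjusted p = 0.0449). This was the call nearest the threshold, and it was lost with the GC content averaged over coding transcripts (edgeR adjusted p = 0.0558). Macrophages express Apoe, Abca1 and Abcg1 strongly, and the 7 macrophage markers in the tables summed to 12.9 and 16.7 CPM with ATRA and to 22.0 and 18.2 CPM in the controls. They did not move together: of 4 tested, Cd68 fell after correction (−0.97, edgeR adjusted p = 0.0439), and Itgam and Mrc1, at 1.27 and 0.49, did not pass. Lyz2 had 117 counts in control replicate 1 and 0 in every other library. The leukocyte gene Ptprc was at 0.212 and 0 CPM with ATRA and at 0.345 and 0 CPM in the controls, and the part of such cells in these results was not tested.

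**Figure D2:**
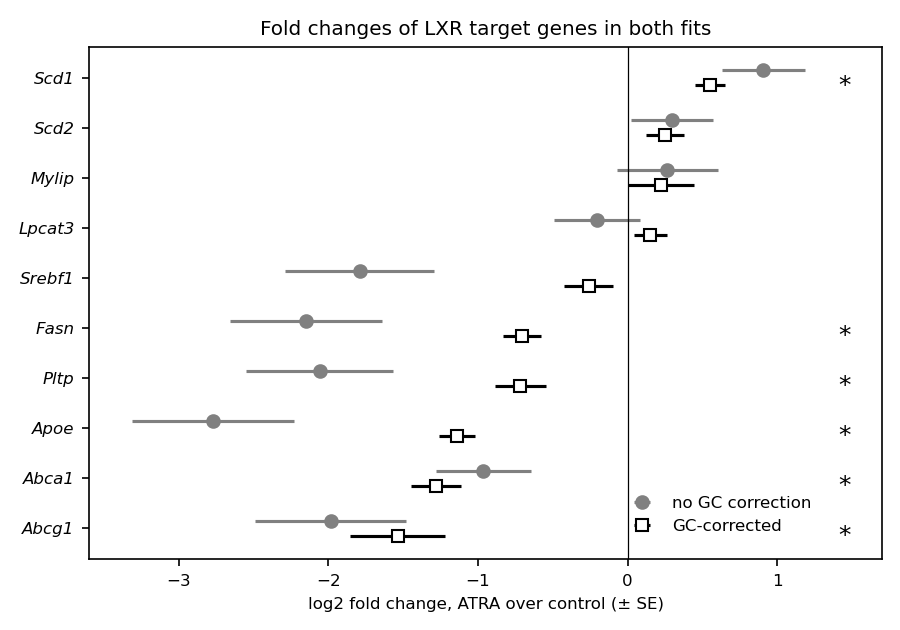
Log2 fold changes (ATRA over control, ± SE) of the LXR target genes without GC correction (grey circles) and with it (open squares), ordered by the corrected value. Asterisks mark an edgeR adjusted p under 0.05 after correction. Abcg1 is lowest at −1.54 and Scd1 highest at 0.55.

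Among the lipogenic genes, Srebf1 and Fasn were lower with ATRA in every library, but only Fasn passed after correction. Srebf1 encodes the transcription factor SREBP-1, which drives fatty acid synthesis genes, and lies on chromosome 11 from 60199089 to 60222581, minus strand. It had 37.3 and 15.3 CPM in the ATRA libraries, against 110 and 72.4 CPM in the controls. At −1.79 ± 0.50 its log2 ratio (edgeR adjusted p = 0.0846) lay near the median of its GC decile, −1.73, and shrank to −0.26 ± 0.17 after correction (edgeR adjusted p = 0.295). The corrected levels were 42.5 and 42.2 CPM with ATRA and 57.4 and 44.0 CPM in the controls, close to each other. The gene makes SREBP-1a and SREBP-1c from separate promoters, LXR acting on that of SREBP-1c. A count per gene cannot tell these transcripts apart.

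Fasn encodes the enzyme that builds palmitate (chromosome 11, 120805846 to 120824547, minus strand). It had 350 and 137 CPM in the ATRA libraries, against 1258 and 903 CPM in the controls, with no overlap. The log2 fold change was −2.15 ± 0.51 (edgeR adjusted p = 0.0783), and −0.71 ± 0.13 after correction (edgeR adjusted p = 0.0270). In corrected CPM this is 379 ± 18.5 with ATRA and 618 ± 85.3 in the controls (SD, n = 2 each). Fasn and Pltp are both in the second-highest decile by GC content, with a median uncorrected log2 fold change of −1.31. Their ratio within a library (Pltp over Fasn) was 0.0255 and 0.0263 in the ATRA libraries and 0.0223 and 0.0273 in the controls, so they overlapped relative to each other. Of the genes that carry the shared promoter run, Abca1 and Fasn fell after correction, Srebf1 did not pass, and Acsl3 rose, at 0.51 ± 0.09 (edgeR adjusted p = 0.0270). Rnf145 was at −0.56 ± 0.23 (edgeR adjusted p = 0.145).

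Scd1 and Scd2 encode stearoyl-CoA desaturases, which make monounsaturated fatty acids, and are neighbours on chromosome 19 (Scd1 from 44394455 to 44407879, minus strand, and Scd2 from 44293674 to 44306864, plus strand). Scd1 had 177 and 233 CPM in the ATRA libraries, against 107 and 111 CPM in the controls. It was higher in both ATRA libraries, at 0.91 ± 0.27 in log2 (edgeR adjusted p = 0.0896), and rose by 0.55 ± 0.10 after correction (edgeR adjusted p = 0.0277). With the GC content averaged over its coding transcripts, 54.0% in place of 47.1%, its corrected value was 1.66 (edgeR adjusted p = 0.0371). Scd2, the most abundant of the 10 genes by group mean although below Fasn in control replicate 1, had 1255 and 1536 CPM in the ATRA libraries, against 1154 and 1115 CPM in the controls. Its log2 fold change was 0.30 ± 0.27 (edgeR adjusted p = 0.416), and 0.25 ± 0.12 after correction (edgeR adjusted p = 0.199). Scd2 was thus higher in both ATRA libraries without passing the test on all 4. With any single library left out, its corrected log2 fold change stayed between 0.11 and 0.40. The ratio of Scd1 to Scd2 was 0.141 and 0.151 in the ATRA libraries and 0.0926 and 0.0998 in the controls, 1.52-fold higher with ATRA. The genes are close paralogs, and reads that match both could have been split or dropped, so their separate levels are uncertain.

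Scd1 and Abca1 have nearly the same GC content in their longest coding transcripts, 47.1% and 47.5%, though not averaged over coding transcripts (54.0% and 47.5%), and moved in opposite directions. Abca1 over Scd1 was 0.0920 and 0.0945 in the ATRA libraries and 0.372 and 0.313 in the controls. The ATRA libraries lay close together in this ratio and far below both controls. That separation follows from the opposite directions of Abca1 and Scd1, so it adds no evidence of its own. With 2 libraries in each group, an exact two-sided permutation test cannot go below p = 0.333, so no p is given for ratios. In the highest GC decile, Apoe over Srebf1 was 0.848 and 0.716 with ATRA and 1.46 and 1.82 in the controls, again without overlap.

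**Figure D3:**
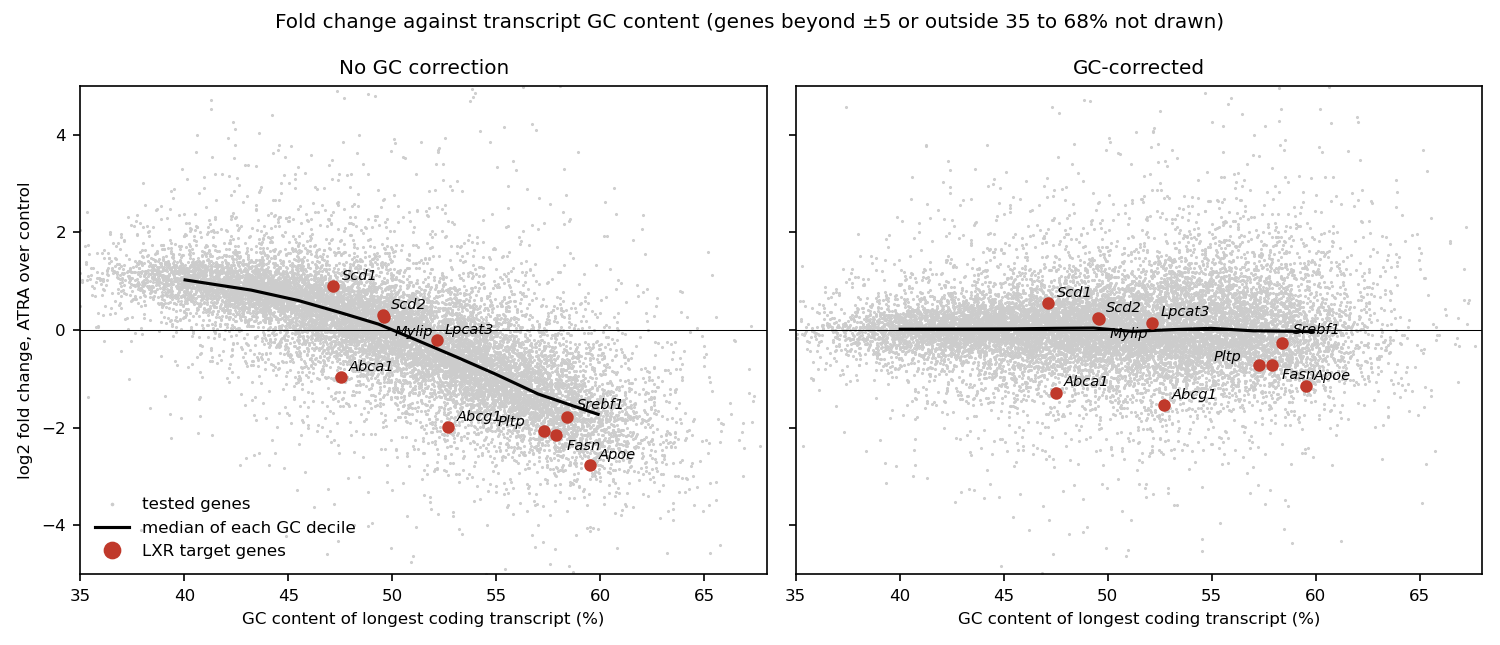
Log2 fold change (ATRA over control) of each tested gene against the GC content of its longest coding transcript, without correction (left) and after GC correction (right). Grey points are genes, the black line joins the medians of GC deciles, and red points are the LXR target genes. Without correction Srebf1 lies near the line, while Abca1, at −0.97, lies below it.

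The remaining genes act on membrane lipids and on lipoprotein uptake. Lpcat3 encodes the acyltransferase that puts polyunsaturated chains into phosphatidylcholine (chromosome 6, 124663027 to 124704418, plus strand). It had 104 and 73.5 CPM in the ATRA libraries, against 98.96 and 106 CPM in the controls, and the groups overlapped. Its log2 fold change was −0.20 ± 0.29 (edgeR adjusted p = 0.596), and 0.15 ± 0.11 after correction, where it turned direction without passing (edgeR adjusted p = 0.351). Mylip, also called Idol, encodes a ubiquitin ligase that marks lipoprotein receptors for breakdown (chromosome 13, 45389742 to 45412022, plus strand). It had 88 and 67 counts in the ATRA libraries and 165 and 129 in the controls, which are 6.22 and 6.91 CPM against 5.17 and 5.75 CPM. The ATRA libraries were slightly the higher, at a log2 fold change of 0.27 ± 0.34 and, after correction, 0.22 ± 0.22 (edgeR adjusted p = 0.555 and 0.490). The receptor genes Vldlr and Lrp8, whose proteins Mylip targets, did not pass in either fit, with corrected log2 fold changes of −0.52 and −0.56 (edgeR adjusted p = 0.0908 and 0.0624).

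Levels per transcript length put the 10 genes in an order that changed between the groups. Per kb of the longest coding transcript and without GC correction, the ATRA means ran from Scd2 (255.8 CPM per kb) through Scd1 (42.4), Lpcat3 (39.0), Fasn (24.2), Apoe (15.1), Srebf1 (6.12), Pltp (2.81), Mylip (2.14) and Abca1 (1.86) to Abcg1 (0.340). In the controls Scd2 (208 CPM per kb) was followed by Fasn (108), Apoe (104), Lpcat3 (44.9), Scd1 (22.6), Srebf1 (21.3), Pltp (11.8), Abca1 (3.63), Mylip (1.78) and Abcg1 (1.38). Among the controls, the libraries of Fasn and Apoe overlapped, as did those of Scd1 and Srebf1. In the ATRA group every neighbouring pair from Scd1 down to Abca1 overlapped, and only Scd2 at the top and Abcg1 at the bottom stood clear of the next gene. Scd1 thus stood above Fasn, Apoe and Lpcat3 in the order of the ATRA means and below all of them in that of the controls, although its ATRA libraries overlapped those of Lpcat3. After GC correction Scd1 stood above Apoe but not above Fasn or Lpcat3: the ATRA means were 43.7 CPM per kb for Lpcat3, 37.7 for Fasn, 37.2 for Scd1 and 24.7 for Apoe, and the ATRA libraries of Scd1 and Fasn overlapped.

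**Figure D4:**
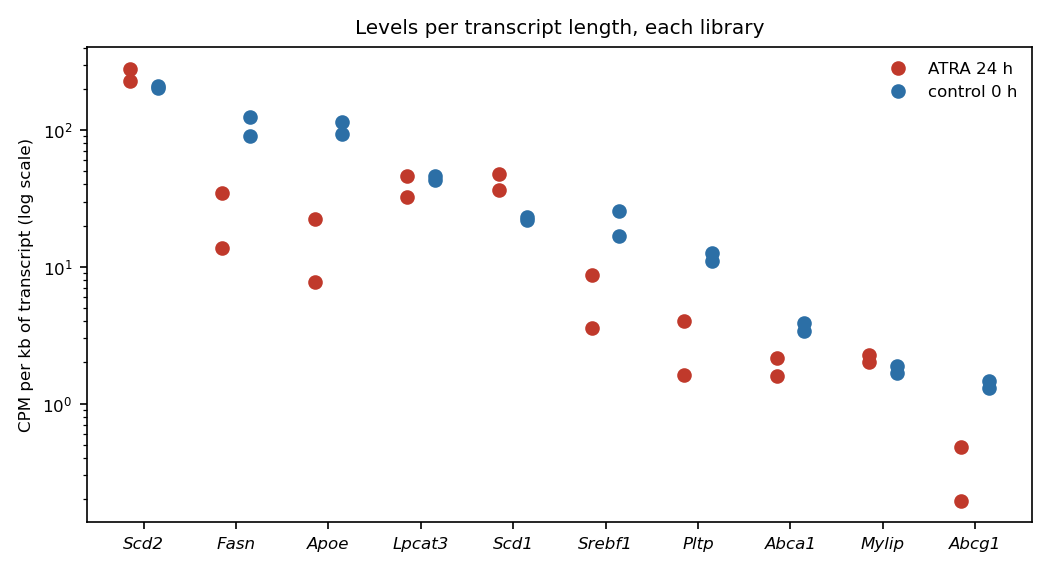
CPM per kb of transcript (log axis, no GC correction) of each LXR target gene in the ATRA libraries (red, left of each pair) and the controls (blue, right), ordered by the control mean. Scd2 is highest in both groups and Abcg1 lowest.

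The receptors and corepressors that act on these genes were also measured. Nr1h2, the gene of LXR beta, had 8.76 and 4.64 CPM in the ATRA libraries, against 58.1 and 40.0 CPM in the controls, and fell after correction, at −1.02 ± 0.20 (edgeR adjusted p = 0.0319, and −2.86 with 0.0680 without correction). Nr1h3, the gene of LXR alpha and itself an LXR target in other cells, had few counts. There were 14 and 1 in the ATRA libraries, of which only replicate 2 was under 3 counts, and 58 and 34 in the controls. Its log2 fold change was −1.48 ± 0.77, and −0.17 after correction (edgeR adjusted p = 0.186 and 0.835), and −3.96 without ATRA replicate 1 in the uncorrected fit. Of the 7 listed receptors and corepressors, 2 fell after correction, Nr1h2 among them, and 0 rose, with a median of −0.17. Of all genes tested, 7.84% fell and 8.79% rose in that fit. Rxra and Rxrb were at 0.19 and 0.035 and Rxrg at −2.47 (edgeR adjusted p = 0.0618), none past the test. With either control library left out, Nr1h2 no longer passed after correction. Uncorrected, 0 of 7 passed edgeR's test and 4 had an unadjusted p under 0.05, as did 5721 of the 14256 genes tested.

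A list of 18 further LXR targets gave 0 calls among the 12 tested in either fit of edgeR. Without and with correction, 4 and 3 of the 12 had an unadjusted p under 0.05, against 5721 and 5459 of the 14256 genes tested. The medians of the list were −0.40 and 0.18. Its most abundant member by the mean of all 4 libraries, the small GTPase gene Arl4c, had 76.6 and 110 CPM in the ATRA libraries and 77.7 and 80.7 CPM in the controls (log2 fold change 0.23, and 0.74 after correction, edgeR adjusted p = 0.542 and 0.145). The intestinal and hepatic sterol transporter genes Abcg5 and Abcg8 and the bile acid synthesis gene Cyp7a1 had too few counts to test. Of 19 tested genes of fatty acid synthesis and desaturation and their SREBP control, 2 rose and 1 fell after correction, with a median of 0.13. These 3 of 19 are close to the share of all tested genes called in that fit, 16.6%. The desaturase gene Fads1 rose, with 108 and 132 CPM in the ATRA libraries and 66.1 and 74.3 CPM in the controls (corrected log2 fold change 1.19 ± 0.24, edgeR adjusted p = 0.0336). The acetyl-CoA synthetase gene Acss2 rose as well (1.36, edgeR adjusted p = 0.0424). Mid1ip1, whose protein activates acetyl-CoA carboxylase, fell, with 8.20 and 5.26 CPM in the ATRA libraries and 47.0 and 29.8 CPM in the controls (−1.25 ± 0.27, edgeR adjusted p = 0.0395). The call of Mid1ip1 was lost without ATRA replicate 1 and without either control, and those of Fads1 and Acss2 without either control. Srebf2, the gene of the factor that drives cholesterol synthesis, was at −0.13 (edgeR adjusted p = 0.570) after correction and −1.63 (0.0818) before it.

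**Figure D5:**
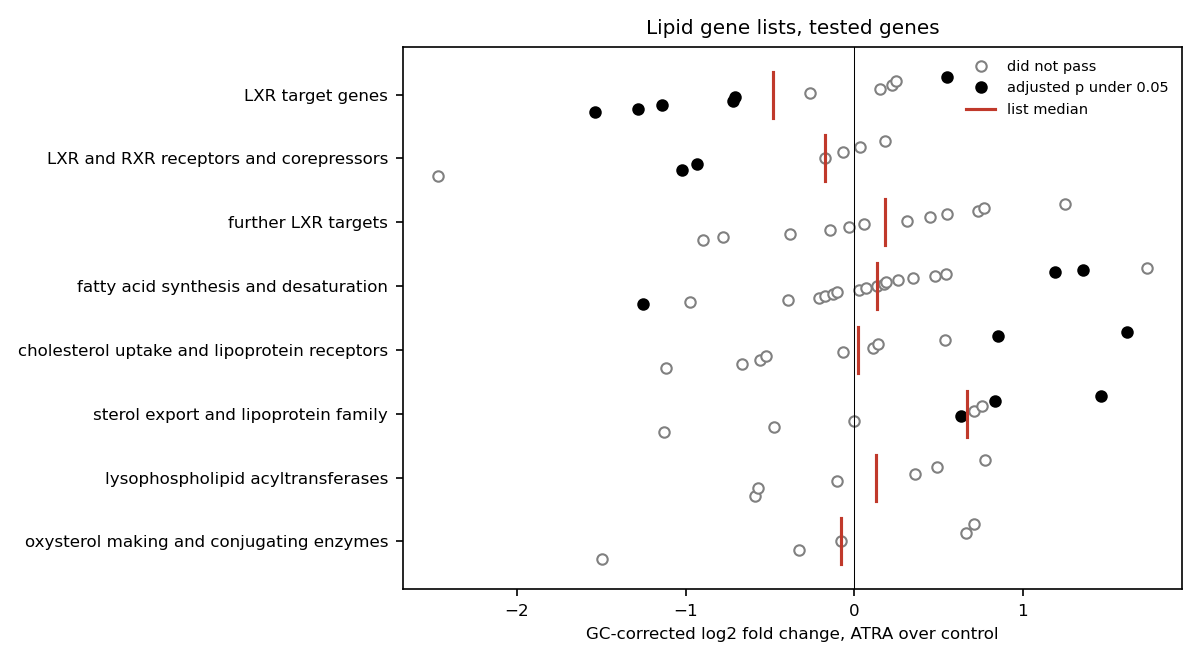
GC-corrected log2 fold changes (ATRA over control) of the tested genes of each lipid gene list, with genes past an edgeR adjusted p of 0.05 filled and the list median as a red line. The LXR target genes have the lowest median, −0.48, of the 8 lists.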

How the data were processed

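For each library the authors deposited raw counts of reads, whole numbers listed by gene symbol. Tools named by the submitters' processing notes are HTSeq 0.6.0, Cuffdiff 2.0.2, Cufflinks 2.0.2 and TopHat2 2.0.7, with mm10 as the build. Which annotation and strand setting were used is not given here. Summary lines were dropped, and reads outside annotated genes were 64.7% and 66.2% of the total with ATRA and 63.4% and 63.9% in the controls. A count of 3 stands for 0.0940 to 0.309 CPM (counting error only).

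Testing used edgeR 4.0.16 in R 4.3.3, with its default low-count filter, TMM, a robust quasi-likelihood fit and Benjamini-Hochberg adjustment over all genes. The SE is the log2 fold change over the root of F. For the GC correction, each library's deviation in log2 CPM (prior count 2) was regressed robustly on transcript GC content (MASS 7.3.60.0.1, natural spline, 5 degrees of freedom) and used as an offset. GC content and length are those of the longest coding transcript in GENCODE M21, known for 99.2% of tested genes. DESeq2 1.42.0 was an alternative. The fits were tested on simulated data. The genes, lists and the GC correction were chosen with earlier results of these data known. Named besides the 10 genes were the LXR and RXR genes, Srebf2, Vldlr, Lrp8, Rarb, Cyp26a1, Pou5f1, Sox2 and, per lipid list, up to 3 called genes of smallest p, or else the most abundant. Some genes this rule picks are not reported here. Acsl3, Rnf145 and the markers given beside the sums were named after their values were seen.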

Additional observations from a re-analysis of the deposited data

How the results depend on the processing

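Whole-table calls were 156 with DESeq2 size factors in edgeR, 4350 with DESeq2, 2807 with no filter on low counts, 2371 with the GC correction, and 82 to 10952 with a library left out (51 to 7433 GC-corrected), against 86 as reported. Calls among the 10 LXR target genes were 0 as reported, 0 with DESeq2 size factors, 6 with DESeq2, 5 with no filter, 6 with the GC correction, and 1 to 9 with a library left out (0 to 7 GC-corrected). The 6 GC-corrected calls became 6 with a spline of 3 degrees of freedom and 5 with GC content averaged over coding transcripts. No label says that a replicate number marks a shared culture or day, and deviations of same-numbered libraries correlated at 0.183 (−0.0344 after GC correction). With the replicate number as a block, 4212 genes and 5 of the 10 passed, and 2967 and 5 with the block and the GC correction, where Pltp was lost (edgeR adjusted p = 0.0601). Directions turned for Lpcat3, Rxra, Rxrb, Vldlr and Abca3, with the cause not tested beyond the GC correction itself. Given are the corrected value, that with block and correction, and the range over both fits with a library left out. Lpcat3 was at 0.15, 0.15 and −0.49 to 0.22, and Rxra at 0.19, 0.18 and −1.91 to 0.34. Rxrb was at 0.035, 0.029 and −2.90 to 0.19. Vldlr was at −0.52, −0.52 and −0.56 to 0.43, and Abca3 at 0.83, 0.82 and −0.83 to 1.00. That range also spanned 0 for Arl4c (−0.035 to 1.16), Nr1h3 (−3.96 to 0.18), Sox2 (−0.71 to 0.44) and Srebf2 (−2.26 to 0.033). In the corrected fits alone, omitting a library left Lpcat3, Rxra and Abca3 above 0 and Vldlr below 0. The other 9 LXR target genes kept their direction under every alternative. The promoter run, the search with 3 mismatches and the corrected levels per kb were chosen after seeing the data. The lower depth of the ATRA libraries limits Abcg1, Nr1h3 and Mylip.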

Other observations

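Among 8 tested genes of the wider sterol export and lipoprotein family (13 listed), 3 rose and 0 fell after GC correction, where 16.6% of all tested genes were called, with a median log2 fold change of 0.67. Apob, which encodes the structural protein of low-density lipoprotein, had 10.4 and 19.0 CPM in the ATRA libraries, against 2.98 and 3.16 CPM in the controls (corrected log2 fold change 1.46 ± 0.21, edgeR adjusted p = 0.0186). It moved opposite to Apoe. The ABC transporter genes Abca5 and Abca3, relatives of Abca1, also rose after correction, at 0.63 and 0.83 (edgeR adjusted p = 0.0401 and 0.0458), and uncorrected they were at 1.65 and −0.05. Of 10 tested lipoprotein receptor and uptake genes, 2 rose and 0 fell after correction. This is close to the share of all tested genes called in that fit, 16.6% (8.79% higher and 7.84% lower). Lrp2, the gene of the endocytic receptor megalin, which binds apolipoproteins, had 616 and 647 CPM in the ATRA libraries, against 332 and 317 CPM in the controls (0.85 ± 0.09, edgeR adjusted p = 0.0102). Without either control library none of Apob, Abca5, Abca3 and Lrp2 passed in the corrected fit.

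None of the 6 tested lysophospholipid acyltransferase genes related to Lpcat3 and none of the 5 tested oxysterol enzyme genes passed in either edgeR fit. Unadjusted p was under 0.05 for 1 and 3 of them uncorrected and for 2 and 2 corrected. Over the 14256 genes tested, this held for 5721 uncorrected and 5459 corrected. Lpcat1, the most abundant of the acyltransferases by the mean of all 4 libraries, was at −0.98 uncorrected and −0.59 corrected.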
